A study of Mus musculus with 21 samples.

Results

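The 9 genes described here encode structural chains of the basement membrane: the collagen IV chains Col4a1, Col4a2, Col4a3, Col4a4 and Col4a5, the laminin chains Lama3, Lama4 and Lamb3, and the linker protein nidogen (Nid1). They were chosen by name, as the probe sets whose only annotated gene is 1 of these 9, out of 19938 genes that the arrays measured under 1 symbol. All 9 were found, each with 1 probe set, and all 9 are reported. In the study the left lung of mice was taken out (left pneumonectomy), which leaves the right lung to grow, and the authors measured RNA from the right lung on 21 Affymetrix gene arrays. All animals were male and of the C57BL/6 strain, and the lungs were taken on days 3, 7, 14, 28 and 56 after left pneumonectomy, on day 56 after sham surgery, and on day 0, before any operation. Each of these 7 conditions had 3 arrays, 1 each from the medial lobe of the right lung, the cardiac lobe of the right lung and the whole right lung. The labels give no age and leave unsaid if 1 mouse supplied all 3 regions, or if tissue from several mice was pooled. The spread behind the tests below is therefore that between regions of a condition, after the mean of each region was fitted. It may hold little of the spread between animals. The tests of whether the early response differed by region are the exception, and use the spread between pooled conditions within a region.

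A basement membrane is a thin sheet of extracellular matrix on which epithelial and endothelial cells rest; in the gas-exchanging wall of the lung, the sheets of the alveolar epithelium and of the capillary lie against each other and are largely fused. Collagen IV chains wind into triple helices of fixed composition: Col4a1 and Col4a2 form the helix found in nearly all basement membranes, while Col4a3, Col4a4 and Col4a5 together form a more crosslinked helix found in the lung alveolus, the kidney glomerulus and a few other sites. Laminins are cross-shaped heterotrimers that polymerise into the sheet to which cells attach: Lama4 is the alpha chain typical of endothelial and mesenchymal cells, and Lama3 and Lamb3 are the alpha and beta chains of the laminin that anchors epithelial cells. Nidogen binds both laminin and collagen IV and links the 2 networks. Col4a1, Col4a2 and Lama4 are called endothelial-type chains below, and Col4a3, Col4a4, Col4a5, Lama3 and Lamb3 epithelial-type chains; these are class names from textbook knowledge, since fibroblasts and pericytes also make Col4a1, Col4a2 and Lama4, and Nid1 belongs to neither class.

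The deposited values are log2 signals from RMA (robust multi-array averaging), in which 1 unit is a doubling, and a value of 1 probe set cannot be set against that of another as an amount. The lung markers were bright on every array: the type II cell surfactant gene Sftpc ranged from 13.18 to 13.45, the type I cell gene Ager from 11.73 to 12.60 and the endothelial gene Pecam1 from 9.92 to 11.17, while the basal cell genes Krt5 and Trp63 averaged 5.48 and 5.66. In the order of mean signal over the 21 arrays, the 9 genes lay between the 48.6th percentile of all genes (Col4a5) and the 83.4th (Lamb3). An array stood apart from the 6 others of its region in each of 2 regions. The mean log2 signal of 59 small RNA genes was 8.15 in the day 7 cardiac lobe, against 6.90 to 7.48 in the other cardiac lobes, and 9.84 in the day 56 pneumonectomy whole lung, against 7.77 to 9.0 in the other whole lungs; results are given with and without these 2 arrays where they matter. All arrays carry the same stated hybridization date. In whole-tissue RNA, fewer cells of a type and less RNA per cell cannot be told apart.

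Over the whole course, none of the 9 genes passed limma's moderated F test for any difference among the 7 conditions (Benjamini-Hochberg adjusted p under 0.05, the call used throughout), a test that called 7.76% of all genes. At an unadjusted p under 0.05 the count was 5 of 9, and the lowest adjusted p-values were those of Nid1 (0.0574), Col4a1 (0.0828), Lama3 (0.0853) and Lamb3 (0.159). Without the 2 arrays that stood apart, Col4a1 (adjusted p = 0.0103) and Col4a2 (adjusted p = 0.029) passed. With region means removed, the condition means of Col4a1 spanned 1.0 log2 unit and those of Col4a2 0.87, highest on day 7 and lowest on day 28 for both. The spans of Lama3, Nid1 and Lamb3 were 0.70, 0.60 and 0.55, and that of Col4a5 was the smallest at 0.19.

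**Figure D1:**
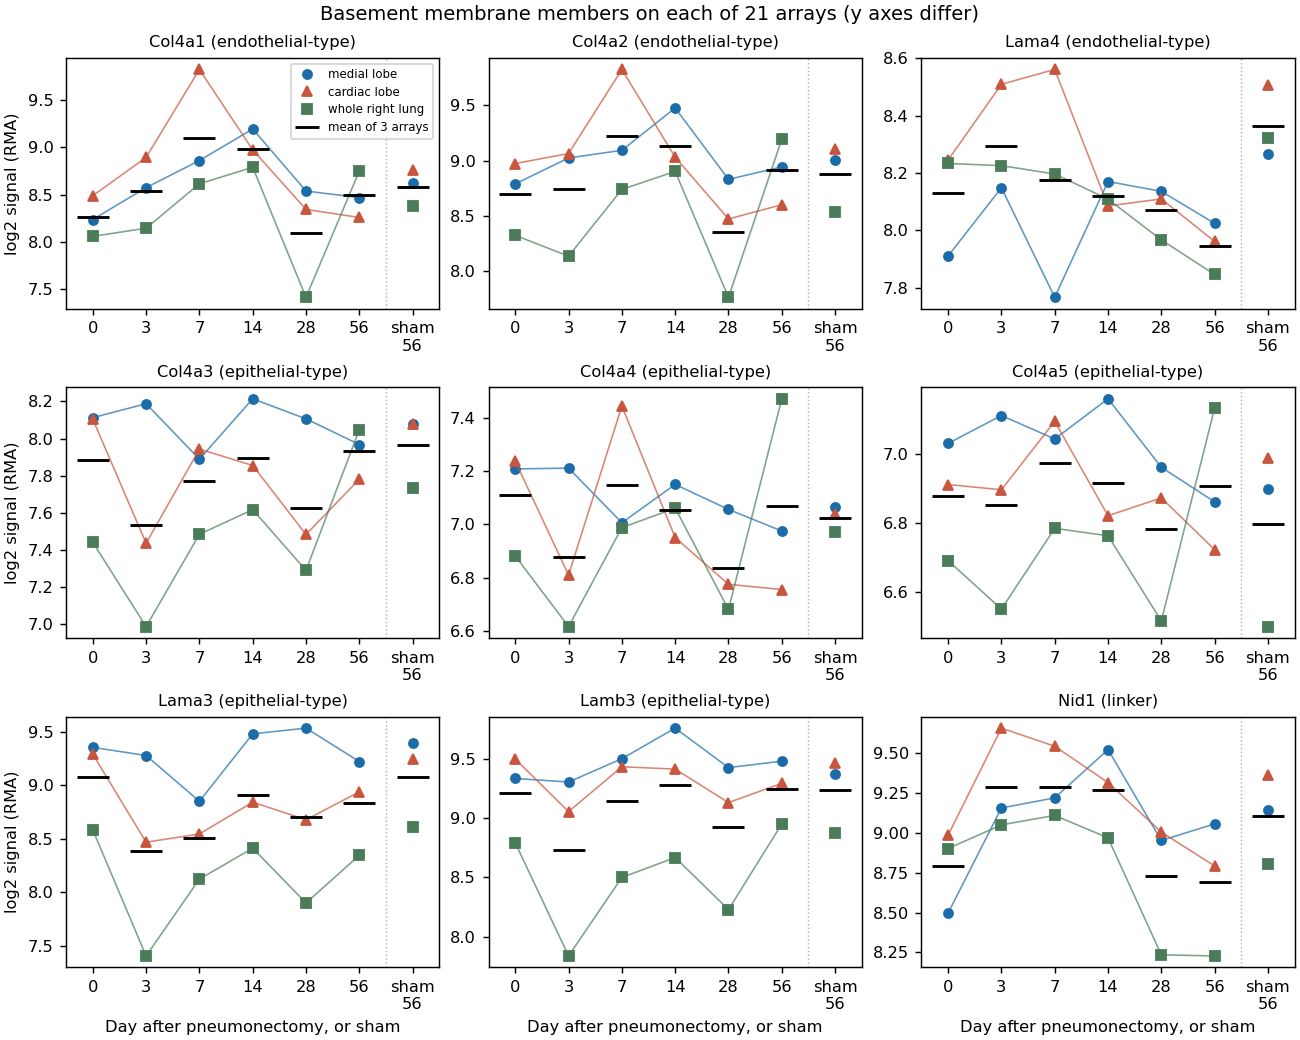
Log2 signal (RMA, y axis, scaled separately for each gene) of the 9 basement membrane genes on each of the 21 arrays, by day after pneumonectomy with day 0 at the left and the day 56 sham at the right (x axis); circles are medial lobes, triangles cardiac lobes, squares whole right lungs, and black lines the means of 3 arrays. Col4a1 is above all its day 0 arrays on days 7 and 14, Lama3 is lowest in the day 3 whole lung at 7.41, and Lamb3 is lower in every whole lung than in any lobe.

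The main chain of the ubiquitous collagen IV helix, Col4a1, was higher in the first 2 weeks after the operation, most clearly on day 7. Its signal on day 7 was 8.86 in the medial lobe, 9.83 in the cardiac lobe and 8.61 in the whole lung, against 8.24, 8.49 and 8.06 in the same regions on day 0. Every day 7 array lay above every day 0 array, and the cardiac lobe on day 7 held the highest Col4a1 value of all 21 arrays. The fitted difference was 0.84 ± 0.24 log2 units (SE, 3 arrays per day), a 1.79-fold higher signal, with a limma adjusted p of 0.0443. It was the 1 gene of the 9 called between day 7 and day 0, a comparison that called 8.69% of all genes, and 4 of 9 had an unadjusted p under 0.05. The call rested on single arrays: without the day 7 cardiac lobe the difference was 0.54 (adjusted p = 0.26), and without the medial, the cardiac or the whole-lung array of day 0 the adjusted p was 0.108, 0.117 or 0.114. Without both arrays that stood apart the difference was 0.56 (adjusted p = 0.0776), and in the 2 lobes alone it was 0.98 (adjusted p = 0.0448).

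On day 14 the Col4a1 values were 9.19 in the medial lobe, 8.97 in the cardiac lobe and 8.79 in the whole lung, again all above the day 0 values. That difference was 0.73 ± 0.24 (limma adjusted p = 0.22), and without the 2 arrays that stood apart, neither of them from day 14 or day 0, its adjusted p was 0.0162. On day 3 the difference was smaller, at 0.28 ± 0.24 (adjusted p = 0.599), though all 3 regions were higher than on day 0. The sham lungs lay between: at 8.62, 8.76 and 8.38 in the medial lobe, cardiac lobe and whole lung, they were 0.33 ± 0.24 above day 0 (adjusted p = 0.748). Against the sham lungs, Col4a1 on day 7 was 0.52 ± 0.24 higher (adjusted p = 0.262), and the whole-lung value of 8.61 on day 7 was below the cardiac-lobe value of 8.76 after sham surgery, so those groups overlapped. Day 14 against sham gave 0.40 ± 0.24 (adjusted p = 1) with no overlap.

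Col4a2, the partner chain of Col4a1 in the same helix, moved with it array by array without passing the test. On day 7 it measured 9.09 in the medial lobe, 9.83 in the cardiac lobe and 8.74 in the whole lung, against 8.79, 8.97 and 8.32 on day 0, higher in each region though the groups overlapped. The day 7 difference was 0.52 ± 0.24 (limma adjusted p = 0.165), the day 14 difference 0.44 ± 0.24 (adjusted p = 0.558) and the day 3 difference 0.05 ± 0.24 (adjusted p = 0.946). Across the 21 arrays, with region means removed, Col4a1 and Col4a2 had a Pearson correlation of 0.94, and of 0.94 over the 19 arrays left without those that stood apart. Within the 7 medial lobes, the 7 cardiac lobes and the 7 whole lungs, the correlation was 0.95 in each. Of the 19937 other genes, Col4a2 was the one most correlated with Col4a1; the median correlation over all of them was 0.08. The arrays share RNA quality, cell composition and normalization, so these correlations describe the arrays and carry no test.

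Col4a1 and Col4a2 lie head to head and are transcribed in opposite directions, so the stretch of DNA that starts the one also starts the other. RefSeq windows from 250 bases before to 50 bases after the annotated start are shown for this pair because it was the pair that moved most alike of those described here. The windows are from build GRCm38.p6, Col4a1 at chr8:11312777-11313076 on the minus strand and Col4a2 at chr8:11312555-11312854 on the plus strand, each written 5′ to 3′ on its own strand. Capitals mark the 78 bases, chr8:11312777-11312854, that both windows hold, read from opposite strands.
Col4a1: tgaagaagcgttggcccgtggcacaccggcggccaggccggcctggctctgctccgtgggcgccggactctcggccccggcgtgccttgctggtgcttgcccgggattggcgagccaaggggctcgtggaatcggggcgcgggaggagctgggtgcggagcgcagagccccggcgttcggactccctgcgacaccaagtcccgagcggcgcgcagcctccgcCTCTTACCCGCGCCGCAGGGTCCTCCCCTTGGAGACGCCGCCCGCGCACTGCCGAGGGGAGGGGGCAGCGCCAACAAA
Col4a2: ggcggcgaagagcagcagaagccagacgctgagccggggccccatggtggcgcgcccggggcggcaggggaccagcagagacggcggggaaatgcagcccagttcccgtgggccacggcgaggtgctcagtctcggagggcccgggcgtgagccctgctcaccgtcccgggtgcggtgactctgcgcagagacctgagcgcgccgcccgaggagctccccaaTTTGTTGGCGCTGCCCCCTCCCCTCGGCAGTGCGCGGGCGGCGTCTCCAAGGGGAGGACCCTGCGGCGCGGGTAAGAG
Of the shared bases, 73.1% are G or C. Of 2 motifs searched on both strands, the GC box GGGCGG occurs 1 time in the shared bases, 1 time in the whole Col4a1 window and 3 times in the whole Col4a2 window, and 35.7% of all 32851 promoter windows in the table hold it. The motif CCAAT occurs 1 time in each of the 2 windows, before the shared bases in the Col4a1 window and across their first base in the Col4a2 window, and is held by 37.4% of all windows. Windows of 6 of the 9 genes were searched: those of Nid1 and Col4a5 hold both motifs, and those of Col4a4 and Lamb3 hold neither. No window of Col4a3, Lama3 or Lama4 was searched, which does not show that RefSeq lacks one. A match describes letters in a window and shows no binding.

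The third endothelial-type chain, the laminin chain Lama4, did not share the day 7 pattern. Its values on day 7 were 7.77 in the medial lobe, 8.56 in the cardiac lobe and 8.20 in the whole lung, against 7.91, 8.25 and 8.23 on day 0, so it was higher in 1 region and lower in the other 2. The fitted difference was 0.04 ± 0.13 (limma adjusted p = 0.823, 95% interval -0.23 to 0.32), and that on day 3 was 0.16 ± 0.13 (adjusted p = 0.553). Lama4 had its largest difference between conditions at the other end of the course, without a call. On day 56 after pneumonectomy it measured 8.02, 7.96 and 7.85 in the medial lobe, cardiac lobe and whole lung, against 8.26, 8.51 and 8.32 on day 56 after sham surgery, with no overlap. That difference of -0.42 ± 0.13 had an unadjusted p of 0.00571 and a limma adjusted p of 0.333. The sham lungs were themselves 0.24 ± 0.13 above day 0, with no overlap (adjusted p = 0.619). Day 56 after pneumonectomy differed from day 0 by -0.19 ± 0.13 (adjusted p = 0.462), and those groups overlapped.

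**Figure D2:**
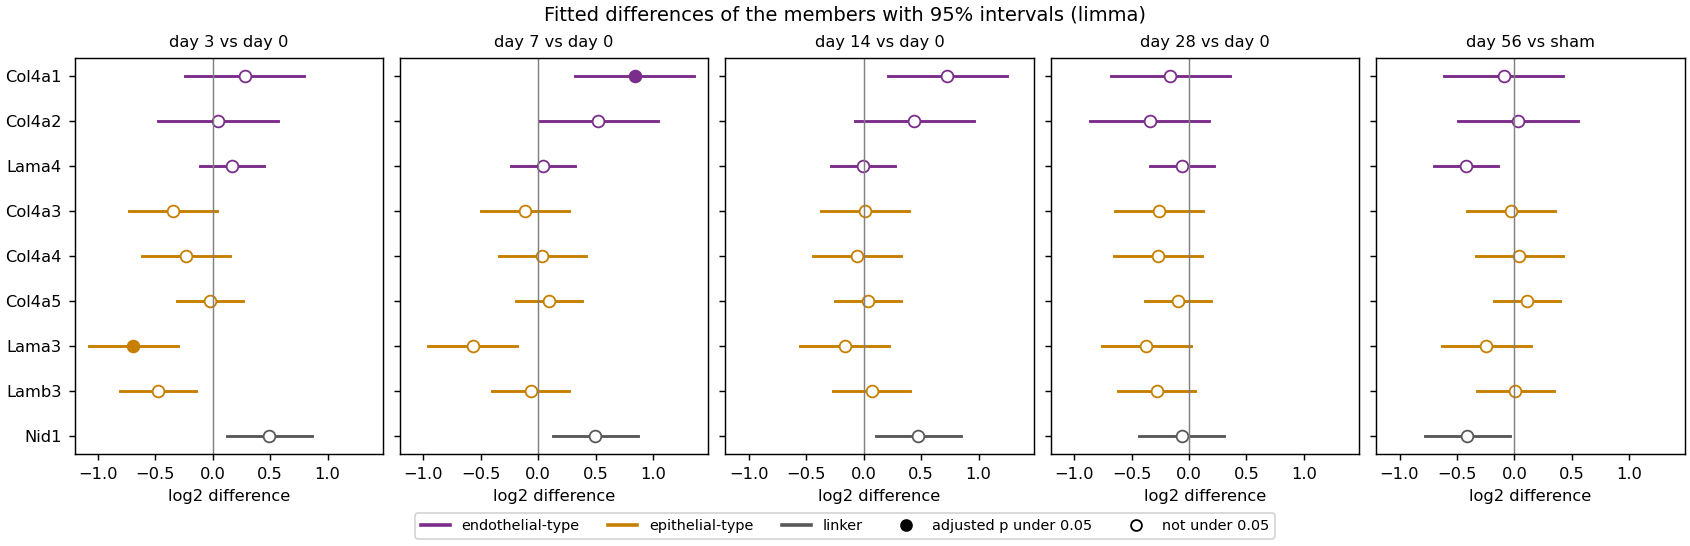
Fitted log2 differences (x axis) of the 9 genes (y axis) for days 3, 7, 14 and 28 against day 0 and, in the last panel, for pneumonectomy against sham lungs of day 56; points are limma estimates from 21 arrays, bars 95% intervals, and filled points have an adjusted p under 0.05. Only Lama3 on day 3 and Col4a1 on day 7 are filled among the 45 estimates shown, and Lama4 has the lowest estimate against sham at -0.42.

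Among the epithelial-type chains, the lower values came on day 3 and were carried by the laminin chains. Lama3 on day 3 measured 9.28 in the medial lobe, 8.47 in the cardiac lobe and 7.41 in the whole lung, against 9.35, 9.29 and 8.58 on day 0. It was lower in all 3 regions, by 0.08 in the medial lobe, 0.82 in the cardiac lobe and 1.18 in the whole lung, and the groups overlapped because the medial lobe barely differed. The fitted difference was -0.69 ± 0.18, a level 0.62 times that of day 0, with a limma adjusted p of 0.0323. It was the 1 gene of the 9 called between day 3 and day 0, where 6.7% of all genes were called, and 3 of 9 had an unadjusted p under 0.05. Against the sham lungs, at 9.39, 9.24 and 8.61 in the same regions, Lama3 on day 3 differed by -0.70 ± 0.18 (adjusted p = 0.0277). It was again the 1 call of 9 in that comparison, which called 7.67% of all genes.

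Those Lama3 calls depended on the cardiac lobe and the whole lung. Without the day 3 whole lung the difference from day 0 was -0.46 (adjusted p = 0.207), in the 2 lobes alone it was -0.45 (adjusted p = 0.332), and without the day 3 cardiac lobe, the day 0 cardiac lobe or the day 0 whole lung the adjusted p was 0.0948, 0.146 or 0.135. Without the day 3 medial lobe it was -0.91 (adjusted p = 0.00553). On day 7 Lama3 was still lower than on day 0 in every region, at 8.85, 8.54 and 8.12 in the medial lobe, cardiac lobe and whole lung, a difference of -0.57 ± 0.18 with a limma adjusted p of 0.0633. By day 14 the difference was -0.16 ± 0.18 (adjusted p = 0.797).

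Lamb3, the beta chain that pairs with Lama3, had 9.30, 9.05 and 7.84 in the medial lobe, cardiac lobe and whole lung on day 3, against 9.33, 9.50 and 8.79 on day 0. The day 3 whole lung was the lowest of the 21 arrays for Lamb3, as it was for Lama3, Col4a3 and Col4a4. The difference of -0.48 ± 0.16 had a limma adjusted p of 0.0879, which was 0.0399 without the 2 arrays that stood apart and 0.0463 without the day 3 medial lobe. By day 7 the difference was -0.06 ± 0.16 (adjusted p = 0.79). Over the 21 arrays Lama3 and Lamb3 had a region-centred correlation of 0.76, made up of 0.07 within the medial lobes, 0.69 within the cardiac lobes and 0.95 within the whole lungs. The pair thus ran together in the whole lungs, less closely in the cardiac lobes and not in the medial lobes, with 7 arrays per region. Lamb3 varied less in the medial lobes (SD 0.15) than in the whole lungs (SD 0.40).

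The chains of the alveolar collagen IV helix differed less. Col4a3 on day 3 measured 8.19, 7.44 and 6.99 in the medial lobe, cardiac lobe and whole lung, against 8.11, 8.10 and 7.44 on day 0, a difference of -0.35 ± 0.18 (limma adjusted p = 0.308). Col4a4 gave 7.21, 6.81 and 6.62 on day 3, against 7.21, 7.24 and 6.88 on day 0 (-0.23 ± 0.18, adjusted p = 0.542). Col4a5 gave -0.03 ± 0.14 (adjusted p = 0.946). In the medial lobe Col4a3 differed from day 0 by 0.07 and Col4a4 by 0.00, and the lower values were those of the cardiac lobe and the whole lung. On day 7 the 3 chains differed from day 0 by -0.11 ± 0.18, 0.04 ± 0.18 and 0.10 ± 0.14 in that order, with adjusted p-values of 0.669, 0.893 and 0.625.

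Col4a3 and Col4a4 are also neighbours that are transcribed in opposite directions, and their region-centred correlation over the 21 arrays was 0.83, with 12 of the 19937 other genes more correlated with Col4a3 than Col4a4 was. It was 0.81 within the medial lobes, 0.70 within the cardiac lobes and 0.94 within the whole lungs, and 0.85 over the 19 arrays left without those that stood apart. Col4a5 and its neighbour Col4a6, the remaining collagen IV pair, had a correlation of 0.40, which was 0.19 over those 19 arrays. Col4a1 and the laminin chain Lama3, in contrast, had a correlation of -0.01.

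**Figure D3:**
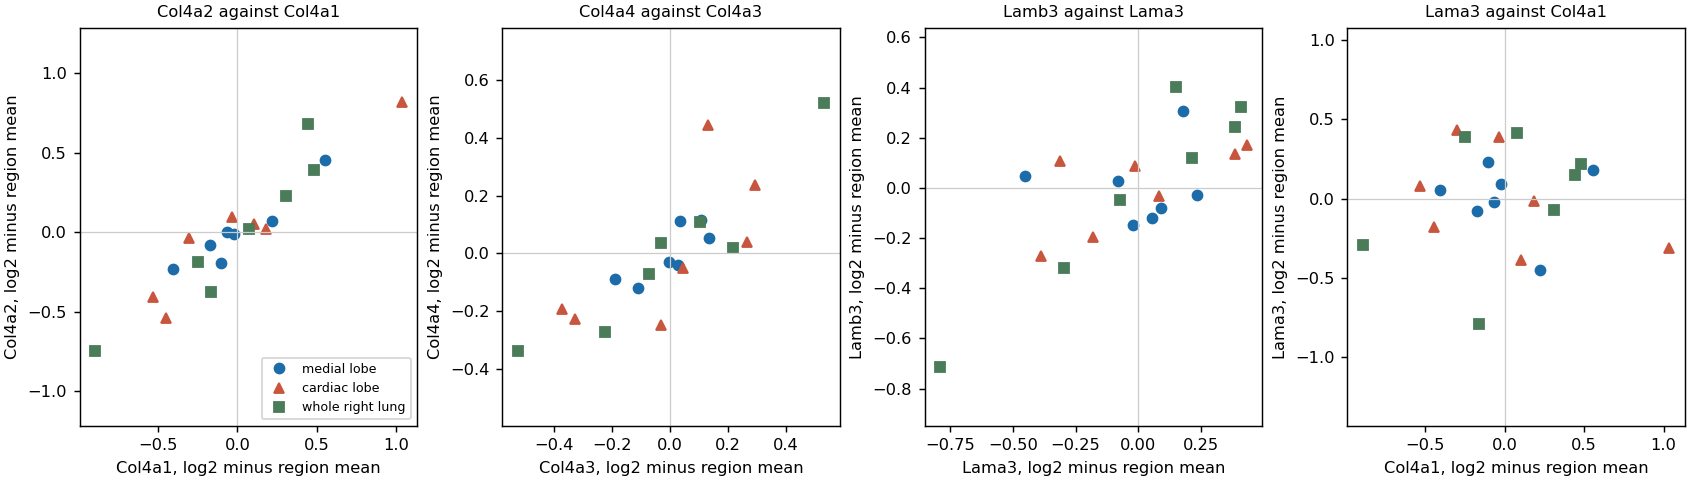
Log2 signal minus the mean of the region's 7 arrays for 4 pairs of genes, 21 arrays each (both axes in log2 units, each panel on its own scale); circles are medial lobes, triangles cardiac lobes and squares whole right lungs. Col4a2 follows Col4a1 closely (correlation 0.94), Col4a4 follows Col4a3 (0.83), and Lama3 against Col4a1 has no slope (-0.01). Lamb3 follows Lama3 most closely in the whole lungs (0.95), less in the cardiac lobes (0.69) and not in the medial lobes (0.07).

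Nid1, the linker, had higher values than day 0 early in the course, and the sham lungs averaged above day 0 as well. On day 3 it measured 9.16 in the medial lobe, 9.66 in the cardiac lobe and 9.05 in the whole lung, against 8.50, 8.99 and 8.90 on day 0, and on day 7 9.22, 9.54 and 9.11. Every array of both days lay above every day 0 array. The differences were 0.49 ± 0.17 on day 3 (limma adjusted p = 0.113) and 0.50 ± 0.17 on day 7 (adjusted p = 0.083). The whole lung differed least, by 0.15 and 0.21, and without the day 0 whole-lung array the differences were 0.71 on both days, with adjusted p-values of 0.0272 and 0.0362. The sham lungs were 0.31 ± 0.17 above day 0 (adjusted p = 0.623), and against them the differences were 0.18 ± 0.17 on day 3 (adjusted p = 0.729) and 0.19 ± 0.17 on day 7 (adjusted p = 0.587), with overlapping groups. On day 14 the difference was 0.47 ± 0.17 (adjusted p = 0.275) and the groups overlapped. On day 56 the pneumonectomy lungs had 9.06, 8.79 and 8.23 in the medial lobe, cardiac lobe and whole lung, against 9.14, 9.36 and 8.80 in sham lungs, a difference of -0.41 ± 0.17 (adjusted p = 0.574).

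Set against day 0 of the same region, the mean of the 3 endothelial-type chains exceeded that of the 5 epithelial-type chains on all 9 arrays of days 3, 7 and 14, by 0.26 to 0.95 log2 units. The gap averaged 0.52 ± 0.24 on day 3, 0.59 ± 0.31 on day 7 and 0.41 ± 0.07 on day 14 (SD, n = 3 arrays each), and then 0.07 ± 0.18 on day 28 and 0.12 ± 0.14 on day 56. Its make-up changed. On day 3 the epithelial-type mean was -0.35 ± 0.32 and the endothelial-type mean 0.16 ± 0.17, while on day 7 they were -0.12 ± 0.03 and 0.47 ± 0.32. The chains within a class were uneven on day 7. The fitted differences from day 0 were 0.84 for Col4a1 and 0.52 for Col4a2 but 0.04 for Lama4. Among the epithelial-type chains they were -0.57 for Lama3 and between -0.11 and 0.10 for the rest. The sham lungs also had a gap, of 0.26 ± 0.11, positive in all 3 regions, from an endothelial-type mean of 0.25 ± 0.06 and an epithelial-type mean of -0.01 ± 0.06. Against the sham lung of the same region the gap was 0.26 ± 0.32 on day 3 and 0.33 ± 0.32 on day 7, and it was -0.11 and 0.05 in the medial lobe, 0.46 and 0.69 in the cardiac lobe and 0.41 and 0.27 in the whole lung. On days 3 and 7 the gap over sham was thus larger in the cardiac lobe and the whole lung than in the medial lobe. It was 0.15 ± 0.07 on day 14, above 0 in all 3 regions, and -0.19 ± 0.09 on day 28 and -0.14 ± 0.10 on day 56, below 0 in all 3 regions. In the fitted differences of day 3 against sham, 0 of 3 endothelial-type and 1 of 5 epithelial-type chains were above 0. The differences from day 0 share their day 0 arrays, those from sham their sham arrays, and no test was made of the gap.

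**Figure D4:**
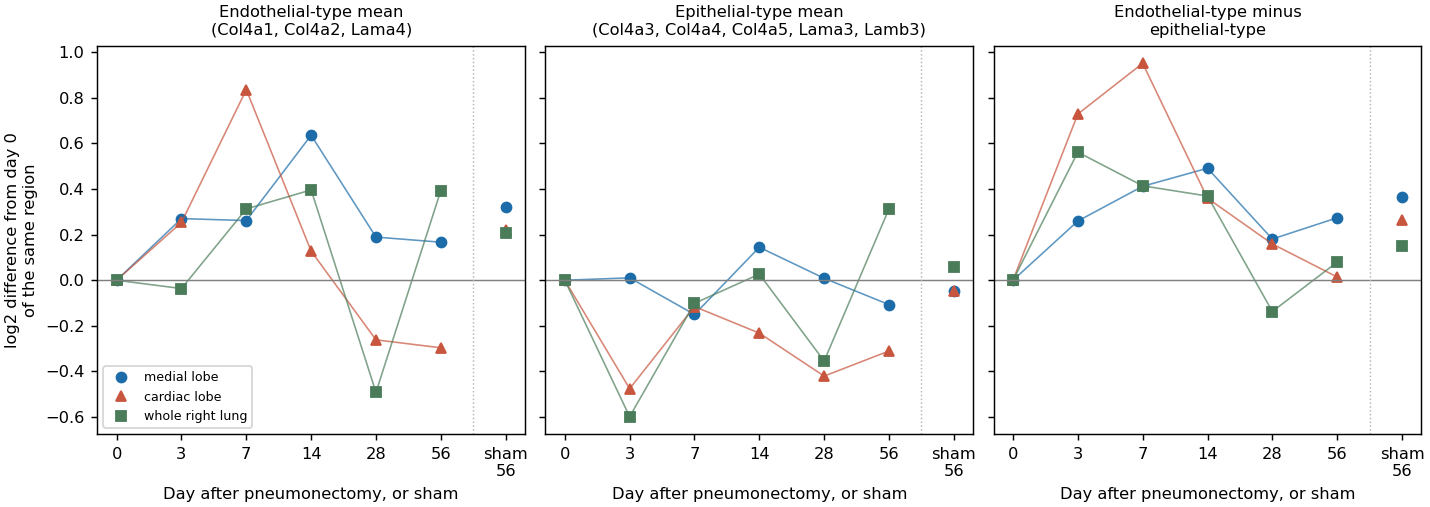
Mean log2 difference from day 0 of the same region (y axis) for the endothelial-type chains, the epithelial-type chains and the gap between them, by day after pneumonectomy and, at the right, day 56 after sham surgery (x axis); circles are medial lobes, triangles cardiac lobes and squares whole right lungs, 1 array each, and day 0 is 0 by construction. The gap is above 0 on all 9 arrays of days 3, 7 and 14 and on the 3 sham arrays, and highest in the day 7 cardiac lobe at 0.95.

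No other comparison between days called any of the 9 genes. The number with an unadjusted limma p under 0.05 was 2 of 9 on day 14 against day 0 (Col4a1 and Nid1; 1.2% of all genes called), 0 of 9 on day 28 against day 0 (0% of all genes called), 0 of 9 on day 56 against day 0 (0.0903% called) and 0 of 9 for sham against day 0 (0.381% called). Against sham it was 1 of 9 on day 7 (Lama3; 4.52% of all genes called), 0 of 9 on day 14 (0.0652% called), 3 of 9 on day 28 (Col4a2, Lama4 and Nid1; 0.186% called) and 2 of 9 on day 56 (Lama4 and Nid1; 0.336% called). Between successive times it was 2 of 9 for day 7 against day 3 (Col4a1 and Lamb3; 0.0652% called) and 1 of 9 for day 14 against day 7 (Lama3; 0.727% called). Col4a1 was 0.56 ± 0.24 higher on day 7 than on day 3 (limma adjusted p = 0.458), and Lamb3 0.41 ± 0.16 higher (adjusted p = 0.395).

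Day 28 was the point at which the estimates of all 9 genes were below day 0, with a median of -0.26, beside a median of 0.00 over all genes. The values there were spread by region: Col4a1 measured 8.54 in the medial lobe, 8.34 in the cardiac lobe and 7.41 in the whole lung, which was the lowest Col4a1 value of the 21 arrays, as was the Col4a2 value of 7.76 in the same lung. The day 28 difference from day 0 was -0.16 ± 0.24 for Col4a1 (limma adjusted p = 0.926) and -0.34 ± 0.24 for Col4a2 (adjusted p = 0.811). On day 56 the pneumonectomy whole lung, 1 of the 2 arrays that stood apart, held the highest whole-lung values of Col4a2, Col4a3, Col4a4, Col4a5 and Lamb3 and the lowest of Lama4 and Nid1. In the cardiac lobe of that day Col4a1, Col4a4, Col4a5, Lama4 and Nid1 were at their lowest cardiac values. Against sham, Col4a1, Col4a2, Col4a3, Col4a4 and Col4a5 were higher in the day 56 whole lung and lower in the cardiac lobe, while Lama3, Lama4 and Nid1 were lower in all 3 regions.

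More of the 9 genes passed the test between regions than between days. Region means rest on 7 arrays each and condition means on 3, so the counts are not of like precision. The SEs of the 9 genes were 0.07 to 0.14 for lobes against whole lung and 0.13 to 0.24 between days. The mean of the medial and cardiac lobes was higher than the whole lung for 7 of the 9 genes, where 29.1% of all genes were called in either direction: Lama3 by 0.88 ± 0.10 (limma adjusted p = 7.16e-05), Lamb3 by 0.84 ± 0.09 (3.77e-05), Col4a2 by 0.51 ± 0.14 (0.0142), Col4a3 by 0.43 ± 0.10 (0.00649), Col4a1 by 0.41 ± 0.14 (0.0369), Nid1 by 0.40 ± 0.10 (0.00805) and Col4a5 by 0.25 ± 0.08 (0.0241). Lama4 (0.04 ± 0.07, adjusted p = 0.683) and Col4a4 (0.10 ± 0.10, adjusted p = 0.488) did not pass. Lama3 averaged 9.30 ± 0.23 in the medial lobe and 8.86 ± 0.32 in the cardiac lobe, against 8.20 ± 0.43 in the whole lung (SD, n = 7 arrays each), and Lamb3 9.45 ± 0.15 and 9.33 ± 0.17, against 8.55 ± 0.40. No Lamb3 value of a lobe was as low as the highest whole-lung value of 8.95. With each array centred on its median, 5 of the 9 passed, without Col4a1 and Col4a5.

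Other measures moved with region as well. The small RNA genes averaged 7.18 ± 0.14 in the medial lobes and 7.30 ± 0.44 in the cardiac lobes, against 8.56 ± 0.72 in the whole lungs (SD, n = 7 each). Of the cell-type marker lists, 11 of 12 endothelial, 7 of 12 type I and 9 of 10 type II genes were higher in the lobes, whereas 5 of 8 basal and airway genes and 3 of 6 mesothelial genes were lower in the lobes. The median lobe difference was 0.45 for the endothelial list, 0.53 for the type II list and 0.27 for the type I list, beside 0.41 for the 9 genes and 0.01 over all genes. The part of these in the regional difference of the basement membrane genes was not tested.

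**Figure D5:**
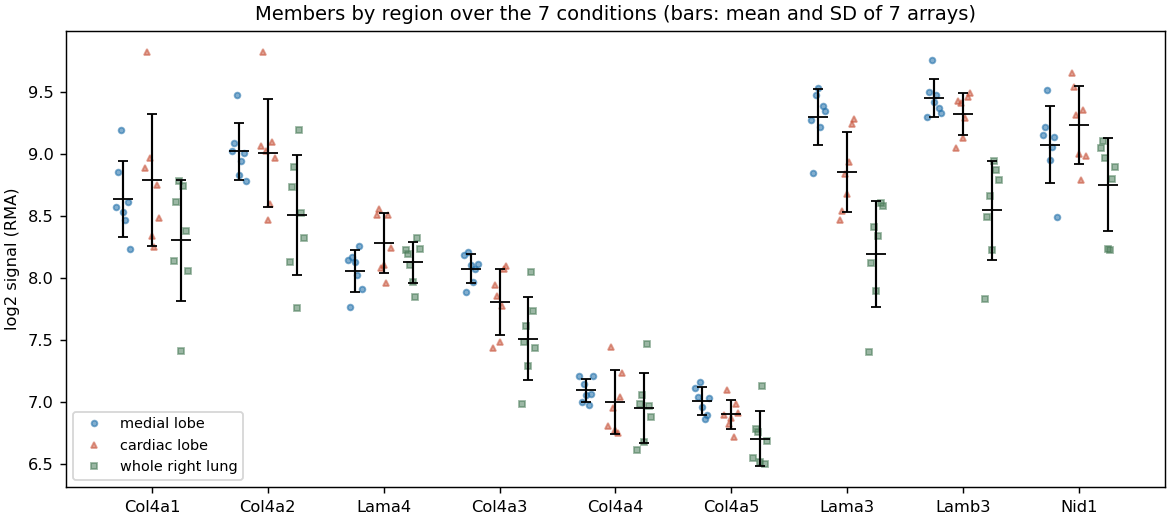
Log2 signal (RMA, y axis) of the 9 genes (x axis) in the medial lobe (circles), cardiac lobe (triangles) and whole right lung (squares), each point 1 of 7 arrays; bars are means and SDs over the 7 conditions, and heights are not comparable between genes. Only Lamb3 in the whole lung, at 8.55 ± 0.40, lies below the medial and cardiac lobes without overlap. Whole-lung values of every other gene, Lama4 and Col4a4 among them, overlap those of the medial or the cardiac lobe.

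Between the 2 lobes none of the 9 passed (limma; 3 of 9 at an unadjusted p under 0.05, and 0.0903% of all genes called). Lama3 was 0.44 ± 0.12 lower in the cardiac than in the medial lobe (adjusted p = 0.222), Col4a3 0.27 ± 0.12 lower (adjusted p = 0.486) and Lama4 0.22 ± 0.09 higher (adjusted p = 0.403). Whether the early response itself differed by region was tested with days 3 and 7 pooled against day 0 and sham. None of the 9 passed for the cardiac against the medial lobe or for the whole lung against the lobes, with 0 of 9 at an unadjusted p under 0.05 and 0% of all genes called in each. The intervals were wide, and their spread is that between the conditions pooled within a region, so it also holds differences between days. For Lama3 the cardiac response minus the medial response was -0.45 (95% interval -1.07 to 0.17), and for Col4a1 0.45 (-0.81 to 1.70). The regional differences in size given above for days 3 and 7 are therefore values of single arrays.

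Of 26 measured other basement membrane genes, 2 rose and 2 fell on day 3 against day 0 (median difference 0.13, all genes 0.01), where 6.7% of all genes were called. The second nidogen, Nid2, rose to 7.62 ± 0.32 on day 3, against 6.79 ± 0.17 on day 0 (SD, n = 3 each; difference 0.83 ± 0.19, limma adjusted p = 0.0128), and Fras1, an extracellular matrix protein of epithelial basement membranes, rose by 0.66 ± 0.13 (adjusted p = 0.00574). The netrin Ntn4, which binds laminin, fell by 0.57 (adjusted p = 0.00894), and Tinagl1, a matricellular protein, fell by 0.44 (adjusted p = 0.0187). On day 7, 2 of the 26 rose and none fell (8 higher and 1 lower at an unadjusted p under 0.05), a share close to the 8.69% of all genes called: Col18a1, the basement membrane collagen that carries endostatin, by 0.65 ± 0.15 (adjusted p = 0.02), and the laminin chain Lama1 by 0.42 ± 0.09 (adjusted p = 0.0101). The Lama1 probe set was dim, at 5.66 ± 0.14 on day 7, against 5.24 ± 0.03 on day 0 (SD, n = 3 each). Against sham on day 3, 7.67% of all genes were called. Nid2 and Fras1 again passed as higher there, and 3 genes as lower, among them Ntn4 and the pikachurin gene Egflam.

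Of 11 measured genes for collagen assembly and crosslinking, 3 rose and none fell on day 3 against day 0 (5 higher and 1 lower at an unadjusted p under 0.05). Against day 0, 6.7% of all genes were called on day 3, 8.69% on day 7 and 0.381% in sham lungs. Against sham the shares were 7.67% on day 3, 4.52% on day 7 and 0.336% on day 56. Serpinh1, the collagen chaperone of the endoplasmic reticulum, rose by 0.87 ± 0.12 (limma adjusted p = 0.000417) to 9.75 ± 0.20 on day 3, against 8.88 ± 0.10 on day 0. The prolyl hydroxylase P3h1 rose by 0.59 ± 0.13 (adjusted p = 0.0138) and the lysyl hydroxylase Plod1 by 0.56 ± 0.14 (adjusted p = 0.0227). On day 7 Serpinh1 and P3h1 were still called, at 0.76 ± 0.12 and 0.61 ± 0.13 above day 0. Serpinh1 was also higher in the sham lungs than on day 0, by 0.63 ± 0.12 (adjusted p = 0.0286). Against sham on day 3, 1 of the 11 passed as higher (P3h1, 0.47 ± 0.13, adjusted p = 0.041) and 2 as lower, the prolyl hydroxylases P4ha2 (-0.48 ± 0.11, adjusted p = 0.0128) and P4ha1 (-0.37 ± 0.10, adjusted p = 0.0304). These enzymes and the chaperone act on fibrillar collagens as well as on collagen IV. On day 56 against sham, Serpinh1 (-0.61 ± 0.12, adjusted p = 0.0376) and P4ha1 (-0.51 ± 0.10, adjusted p = 0.0371) were lower. Of 15 receptors for these chains, none passed limma's test on day 3 against day 0, and none had an unadjusted p under 0.05; the lowest were those of the syndecan Sdc1 (-0.25 ± 0.12, adjusted p = 0.281) and the laminin-binding integrin chain Itga7 (0.37 ± 0.19, adjusted p = 0.297). On day 7 Itga7 alone of the 15 passed (0.68 ± 0.19, adjusted p = 0.0355), a share near that of all genes. Against sham, 2 of the 15 receptors passed on day 3 and 1 on day 7. Itgb4, the integrin chain that holds epithelial cells to the laminin of Lama3 and Lamb3, was higher than in sham lungs on day 3 (0.49 ± 0.11, adjusted p = 0.011) and day 7 (0.46 ± 0.11, adjusted p = 0.0265), days on which the Lama3 difference from sham was -0.70 and -0.57 (adjusted p = 0.0277 and 0.0919). The sham value of Itgb4 was itself 0.34 ± 0.11 below day 0 (adjusted p = 0.262). The collagen-binding integrin chain Itga1 was lower than in sham lungs on day 3 (-0.82 ± 0.20, adjusted p = 0.0176).

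Marker lists of lung cell types were counted on days 3 and 7. Against day 0, 6.7% of all genes were called on day 3 and 8.69% on day 7. Of 12 endothelial markers, none passed limma's test on day 3 or 7 against day 0 (3 had an unadjusted p under 0.05 on each day, all lower), with 0 and 2 of 12 estimates above 0 and medians of -0.27 and -0.16. Against sham, 7 of the 12 were lower on day 3 and 5 on day 7, where 7.67% and 4.52% of all genes were called. The sham lungs themselves lay above day 0 for 11 of the 12, with a median of 0.25 and 0 called. On day 7 against day 0 the Col4a1 difference was 0.84 and the median of the endothelial markers -0.16, and a link between these was not tested. Of 12 type I markers, 3 fell on day 3 and 4 on day 7 against day 0 (medians -0.34 and -0.31). At an unadjusted limma p under 0.05, 8 of the 12 were lower on day 3 and 10 on day 7. Of 10 type II markers 1 was called lower on day 3 against day 0. However, 8 of the 10 were lower there at an unadjusted limma p under 0.05, and 0 of 10 estimates were above 0 (median -0.27). Against sham, 3 of the 10 were called lower on day 3 and 0 on day 7. On day 7 against day 0, 0 of the 10 fell, and 0 had an unadjusted p under 0.05. Of 10 fibroblast and pericyte markers, 4 rose on day 3 and 3 on day 7, led by the fibrillar collagen chain Col1a1 at 2.12 ± 0.40 on each day (adjusted p = 0.00394 and 0.00615), and all 3 called on day 7 were fibrillar collagen genes (medians of the list 0.41 and 0.20, with 9 and 6 of 10 above 0). Of 6 mesothelial markers 5 rose on day 3 and 2 on day 7. The mean level of the fibroblast list was 9.24 to 9.59 on day 3 and 8.90 to 9.89 on day 7, against 8.40 to 8.82 on day 0, and that of the type I list 11.01 to 11.66 on day 3, against 11.62 to 11.78 on day 0. Over the 21 region-centred arrays, Col4a1 had a correlation of 0.06 with the endothelial list mean and 0.68 with the fibroblast list mean, Nid1 of 0.04 and 0.72, and Lama3 of 0.82 and -0.53, with 0.78 for Lama3 and the type I list. Over the 7 fibroblast and pericyte genes left without Col1a1, Col1a2 and Col3a1, a choice made after seeing the data, the correlation was 0.35 for Col4a1 and 0.83 for Nid1. The part of cell makeup in the differences of the 9 genes was not tested.

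The genes most like 3 of the chains across the 21 region-centred arrays, leaving out the other 8 genes and predicted or clone-named genes, were listed by Pearson correlation as a description with no test. For Col4a1 they were Nectin1 (0.91), Ube2g2, Ltbp3, Pik3r2 and Ptgfrn (0.89). For Col4a3 they were Sema3e (0.92), Arhgef2, Bcl2l1, Tspan8 and Mtcl1 (0.85). For Lama4 they were Sec16a (0.85), Htra3, Hip1, Adamts15 and Myh9 (0.76). No gene was in more than 1 of the 3 lists.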

How the data were processed

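RNA of 21 right-lung samples was measured on Affymetrix gene arrays. The deposited table holds log2 values that the authors made with RMA, per the submitters' processing notes; its version is not given in the sources used here, nor is a genome build. The amplification chemistry is unsettled, since the labels' protocols describe a 3′ kit and the annotated platform is a whole-transcript array. The number of arrays limits the precision. Of 35556 probe sets, 21789 had 1 gene symbol in the platform annotation, 1621 several and 12146 none; for the 999 of 19938 genes with several probe sets, the one with the highest mean was used. No gene was filtered out.

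Additive condition and region terms were estimated with limma 3.58.1 (R 4.3.3) from the 21 arrays together (12 residual degrees of freedom), with empirical Bayes moderation and Benjamini-Hochberg adjustment over all genes in each comparison. Errors after ± are standard errors unless SD is stated. Because each region had 1 array per condition, regional differences in response were tested on phase means (days 3 and 7 early; days 14, 28 and 56 late; day 0 and sham control). The fit was tested on simulated data for day 3 against day 0. Of 100 genes shifted by 0.5 log2 units 52 were recovered, and of 100 shifted by 1 unit 91 were, with 8 unchanged genes called each time. All 9 genes are named; from each other list, up to 4 called genes with the largest differences could be named, or the 2 with the smallest p where none was called. The 9 genes, their classes and the lists were chosen with earlier results of these data known. Listed genes with no probe set of 1 symbol were not analysed here. Alternatives were averaging a gene's probe sets, a filter on genes below the median level, a trended robust prior, centring each array on its median, no region term, the lobes alone, the arrays of the comparison alone, and leaving out each array and the 2 that stood apart. Promoter windows are from RefSeq, build GRCm38.p6. Those searched were matched by symbol, and Col4a3, Lama3 and Lama4 have none among them.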

Additional observations from a re-analysis of the deposited data

How the results depend on the processing

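The counts of the 9 genes called kept to within 1.5 times in 278 of 315 alternatives, and no called value changed sign. Comparisons whose count was 0 and stayed 0 are among those kept, so that share does not measure how stable the calls were. The call of Lama3 on day 3 against day 0 held in 7 of 14 alternatives. That of Col4a1 on day 7 against day 0 also held in 7 of 14. For any difference among the 7 conditions the count of 0 became 1 without genes below the median level, 1 with arrays centred on their medians and 2 without the 2 arrays that stood apart, and 0 to 2 when leaving out 1 array. For day 3 against day 0 the count of 1 became 2 without those 2 arrays, 0 with no region term, 0 in the lobes alone and 0 with only the 6 arrays compared (0 to 2 leaving out 1 array). For day 7 against day 0 the count of 1 became 2 with median centring, where Nid1 joined (0.56, adjusted p = 0.0496), and 0 without the 2 arrays, 0 with no region term and 0 with only the 6 arrays (0 to 2 leaving out 1 array). For day 14 against day 0 the count of 0 became 1, Col4a1, without the 2 arrays and with only the 6 arrays. For day 3 against sham the count of 1 became 2 without the 2 arrays and 0 with no region term, in the lobes alone or with only the 6 arrays (0 to 3 leaving out 1 array). For day 7 against sham the count of 0 ranged from 0 to 1 leaving out 1 array. Among all genes, the 1336 called on day 3 were 829 without dim genes, 2827 without the 2 arrays, 628 with no region term and 335 in the lobes alone, and the 1733 on day 7 were 1072 without dim genes, 1052 without the 2 arrays, 424 with no region term and 34 with only the 6 arrays; leaving out 1 array gave 664 to 749 where the count moved on day 3, and 491 to 3888 on day 7. The 1547 genes of the test over conditions were 2501 without the 2 arrays, 671 with no region term and 544 in the lobes alone, and the 5794 between lobes and whole lung were 3860 without the day 14 whole lung. The gap between the 2 chain classes on days 3 and 7 and on day 56 against sham moved by less than its SD in all 33 alternatives. The cause of these changes was not tested beyond the number of arrays or genes each alternative leaves. The number of arrays limits the tests between days, whose SEs for the 9 genes were 0.13 to 0.24.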
